A study of Anguilla anguilla with 11 samples.

Results

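Mitochondrial carriers move nucleotides, phosphate, amino acids and other metabolites across the inner mitochondrial membrane, and their transcripts were counted here in retia mirabilia of European eels. Members were found by the gene name or the description in the deposited table: the ADP/ATP translocases (adt), the phosphate carrier (mpcp), the aspartate-glutamate carriers (cmc), the uncoupling proteins (ucp), the names scm, scmc and s25, 6 single names, and every description with the words mitochondrial carrier or uncoupling protein. This gave 70 of 45974 predicted genes, which are called transcripts below. They carry 34 names, and 3 of them have none. A name covers several members in 17 cases, so that members of 1 name may be duplicated genes or pieces of 1 gene in a draft genome, which cannot be told apart in these data, and fragments may be divided between them. A component annotation was given for 68 members, of which 56 were placed in the inner mitochondrial membrane and 66 in mitochondria. The names mtch1, mtch2 and s2546 belong to relatives that are known from mammals as proteins of the outer membrane.

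RNA came from the rete mirabile of 6 silver eels and 5 yellow eels, all females caught in the wild in Lake Constance. The silver eels of the study were on average heavier and longer than its yellow eels, so stage and body size cannot be told apart here. Yellow eels are the resident, growing stage and silver eels the migratory stage, which the study sampled once the transition was complete. The rete vessels of every eel, of either stage, were perfused with heparinized saline until the blood cells were cleared, and 1 polyA-selected library was made per eel. The library titles carry 2 prefixes, here called sets: FG1907 with 3 silver and 2 yellow eels, and FG1835 with 3 silver and 3 yellow eels. The methods name 2 sequencing systems, 1 giving paired-end reads and 1 giving shorter single reads. They do not say which library was run on which, so what the sets stand for is not known here.

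The carrier family is built from a common fold, and each member exchanges or co-transports a narrow group of substrates. The ADP/ATP translocases export ATP and import ADP, the phosphate carrier supplies the phosphate for ATP synthesis, and the aspartate-glutamate and oxoglutarate-malate carriers together move reducing equivalents of NADH from the cytosol into mitochondria. The rete is a countercurrent bundle of capillaries that serves the gas gland of the swimbladder, and its cells lie between arterial and venous blood of very different composition. Roles given below are those known from mammals or yeast.

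The library totals ranged from 9360429 to 12438185 assigned counts. Values below are relative expression values, which are counts divided by the median-of-ratios size factor of the library. They are not corrected for the length of a transcript. Words such as weakest or highest, the limit of 50, sums and shares therefore describe counted fragments and not transcript levels. The first principal component of the transcripts with a mean above 50 held 47.4% of the variance and separated the sets, and the second held 14.3% and was carried by the silver eel FG1907_02. Summed markers of endothelial cells ranged from 35050 in FG1907_02 to 73438 in FG1907_03, with 14 of 16 transcripts above 50. Markers of smooth muscle and pericytes summed to 53857 to 117216 per library, with 10 of 24 transcripts above 50. Those of fibroblasts summed to 13840 to 47934, with 9 of 11 above 50. Those of gas gland epithelium summed to 18175 to 25964, with 10 of 22 above 50. Most of this sum came from the keratins k1c18 and k2c8, with means of up to 11708 (k1c18 g5911). In the same list epcam g7485 had a mean of 3.23, and cadh1 g3555, the highest cadh1, had 55.5. Whether gas gland cells were present was not tested. With markers of smooth muscle, pericytes and fibroblasts counted, the samples were not endothelial cells alone. Of the 4 erythrocyte names in the list only 2 were found, hem0 and b3at, and these summed to 0 to 21.9 per library. The globin names hba and hbb matched no transcript, so globins do not enter this sum. Leukocyte markers summed to 698 to 2137 per library, with 2 of 4 transcripts above 50. Of these, ptprc g6670 averaged 949 in FG1907 and 1040 in FG1835, and lcp2 g21702 averaged 791 in FG1907 and 92.7 in FG1835. Markers of skeletal muscle summed to 1123 to 1629, with 6 of 48 transcripts above 50. In a bulk sample, fewer cells of a type and less RNA per cell cannot be told apart.

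Of the 70 carriers, 68 were hit by a read, and 54 of them in each of the 11 libraries. The other two, adt1 g17284 and s2536 g21462, had 0 of 119582893 counts, which allows a share of up to 2.51e-06%, for counting error only. A mean above 50, the limit used in the study, was reached by 35 carriers with 25 names. That is 50% of the carriers, against 32.8% of all transcripts. A further 17 had means between 10 and 50, and 18 had 10 or less. The filter on low counts was passed by 52 carriers, and the tests below concern these only.

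The carriers summed to 42613 ± 12967 in silver eels and 40700 ± 9251 in yellow eels (SD, n = 6 and 5), a difference smaller than the spread between eels. They took 0.319 to 0.554% of the assigned counts of a library. The highest sum was 68365 in the silver eel FG1907_03, while the other silver eels had 32147 to 40510. Without it the silver eels averaged 37463 ± 3350. By set the sums were 48092 ± 14064 in FG1907 and 36453 ± 2543 in FG1835 (SD, n = 5 and 6). With FG1907_03 left out, set FG1907 averaged 43024 ± 9616. The adenine nucleotide translocases gave most of the carrier fragments, 50.7 to 68.7% per library.

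**Figure D1:**
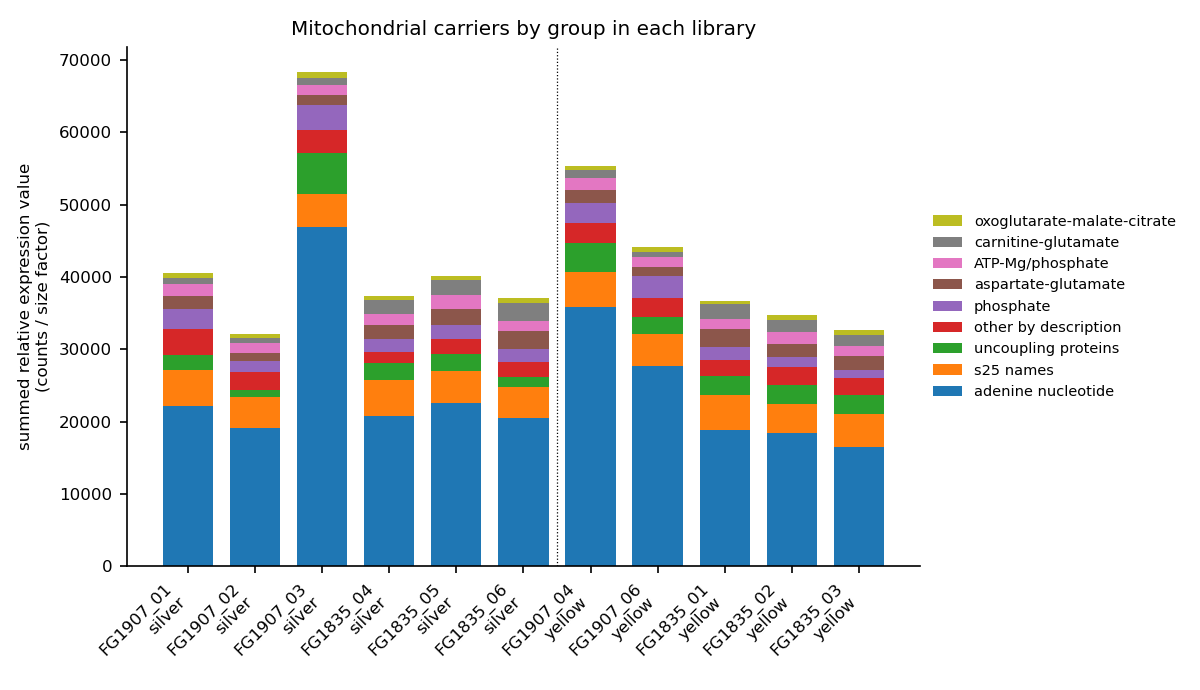
Summed relative expression values (counts over size factor, linear axis from 0) of the mitochondrial carriers in each library, stacked by carrier group, with silver eels left of the dotted line and yellow eels right of it. FG1907_03 stands highest at 68365, FG1907_02 lowest at 32147, and the adenine nucleotide translocases form the largest segment in every library.

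The members of the adenine nucleotide group with a mean above 50 were all named adt2, the ADP/ATP translocase of proliferating and many non-muscle cells. Member g6355 had 14455, 12924 and 26974 in the silver eels of FG1907 and 14615, 16295 and 14398 in those of FG1835, against 21701 and 16437 in the yellow eels of FG1907 and 13317, 12192 and 10837 in those of FG1835. FG1907_03 lay above every other library, and the stages overlapped. For g12829 the silver eels had 7122, 5750 and 19022 in FG1907 and 5940, 6078 and 5908 in FG1835, against 13305 and 10421 in the yellow eels of FG1907 and 5296, 5944 and 5443 in those of FG1835. The 6 libraries of FG1835 were close together, and the spread lay within FG1907. g12829 took 26.9 to 32.9% of the adt2 counts in FG1835 and 30.1 to 40.5% in FG1907. The weakest adt2, g12684, had 568, 429 and 922 in silver eels and 853 and 778 in yellow eels of FG1907, against 241, 235 and 208 in silver eels and 271, 350 and 271 in yellow eels of FG1835. Here the sets did not overlap, while the stages did. For adt1, the muscle and heart form, g40471 averaged 24.2 ± 16.9 in FG1907 and 8.83 ± 4.15 in FG1835 (SD, n = 5 and 6).

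All 4 mpcp transcripts, for the phosphate carrier, passed the filter. mpcp g413 had 2400, 1298 and 2837 in the silver eels of FG1907 and 1622, 1748 and 1688 in those of FG1835, against 2376 and 2533 in the yellow eels of FG1907 and 1572, 1178 and 963 in those of FG1835. FG1907_02 lay below 4 of the 6 libraries of FG1835, and the remaining FG1907 libraries lay above all of them. mpcp g21509 had 270, 183 and 397 in silver eels and 234 and 326 in yellow eels of FG1907, against 99.0, 108 and 107 in silver eels and 120, 173 and 114 in yellow eels of FG1835. No FG1907 library was below any FG1835 library. mpcp g35639 had 33.6, 18.8 and 48.2 in silver eels and 28.3 and 41.7 in yellow eels of FG1907, against 7, 5.42 and 12.3 in silver eels and 7.32, 5.90 and 7.27 in yellow eels of FG1835, and the sets did not overlap. The remaining g40798 averaged 75.3 ± 34.3 in FG1907 and 19.2 ± 6.31 in FG1835 (SD, n = 5 and 6).

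The ATP-Mg/phosphate carriers exchange magnesium-bound ATP for phosphate and so set the size of the adenine nucleotide pool of mitochondria, under control of calcium through their own binding domain. Of 8 members, 5 were tested. Transcript scm2b g5212 had 221, 176 and 201 in the silver eels of FG1907 and 159, 216 and 129 in those of FG1835, against 65.6 and 51.9 in the yellow eels of FG1907 and 83.0, 123 and 41.8 in those of FG1835. The lowest silver eel, at 129, lay above the highest yellow eel, at 123, so that the stages did not overlap. Means were 184 ± 35.8 in silver eels and 73.1 ± 31.9 in yellow eels (SD, n = 6 and 5). The log2 difference of 1.32 ± 0.30 (SE) had an unadjusted p of 0.000675 and an adjusted p of 1.00 in edgeR's quasi-likelihood test over 23981 transcripts. DESeq2 called it, with an adjusted p of 0.0186 and a log2 difference of 1.32, while limma-voom gave an adjusted p of 0.993. With the set as a term the log2 difference was 1.33 ± 0.29, within FG1907 it was 1.78 ± 0.40 and within FG1835 1.00 ± 0.38 (SE). The difference between these 2 values did not pass the test, with an interaction term of 0.77 ± 0.54 (SE; adjusted p = 0.923 in edgeR). Leaving out 1 library at a time gave 1.17 to 1.58, with adjusted p-values from 0.926 to 1.00. Endothelial markers summed to 35050 to 73438 in silver eels and 50197 to 62888 in yellow eels. Smooth muscle and pericyte markers summed to 53857 to 116838 in silver eels and 66364 to 117216 in yellow eels. For fibroblasts the sums were 13840 to 47934 and 23483 to 30588, and for the adipocyte list 156 to 1014 and 172 to 797. Nearly all of the adipocyte sum, 540 on average, came from fabp4 g3192, with a mean of 531. In the same list plin1 g8968 had 8.25, cidec g23 had 0.90 and adipo g9157 had 0, so the sum is not a measure of adipocyte content. The part of cell composition in the stage difference of scm2b g5212 was not tested. This transcript is among those that the study lists for the stages, so its difference is not independent evidence.

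**Figure D2:**
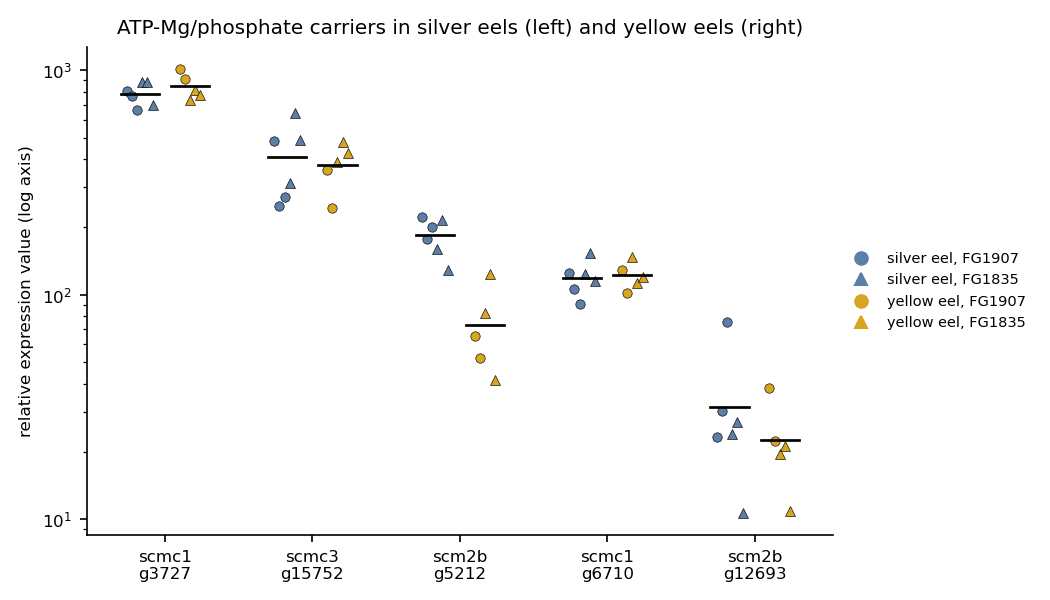
Relative expression values (log axis) of the 5 tested ATP-Mg/phosphate carriers, 1 point per eel, with silver eels left of yellow eels at each transcript, circles for FG1907, triangles for FG1835, and bars at the stage means. For scm2b g5212 the silver points run from 129 to 221 and the yellow points from 41.8 to 123, while the points of the other transcripts overlap.

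The other members of this group overlapped between the stages. scmc1 g3727 had 810, 765 and 664 in the silver eels of FG1907 and 885, 885 and 697 in those of FG1835, against 1009 and 912 in the yellow eels of FG1907 and 737, 812 and 772 in those of FG1835. Its log2 difference between stages was -0.12 ± 0.16 (SE), with the smallest standard error of the tested carriers. scmc3 g15752 had 483, 247 and 273 in silver eels of FG1907 and 314, 646 and 488 in those of FG1835, against 360 and 243 in yellow eels of FG1907 and 388, 477 and 427 in those of FG1835. The second scm2b, g12693, averaged 31.7 ± 22.3 in silver eels and 22.4 ± 10 in yellow eels, and scmc1 g6710 had 119 ± 21.4 in silver eels and 122 ± 16.9 in yellow eels (SD, n = 6 and 5).

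Among the aspartate-glutamate carriers, cmc2 (aralar2, citrin in mammals) has 4 members and cmc1 (aralar1) has 3. cmc2 g20013 had 855, 250 and 275 in silver eels and 770 and 352 in yellow eels of FG1907, against 923, 1178 and 1341 in silver eels and 1371, 899 and 942 in yellow eels of FG1835. Every FG1907 library was below every FG1835 library. The gap was wider for cmc2 g8082, which had 51.0, 42.8 and 10.6 in silver eels and 32.8 and 28.7 in yellow eels of FG1907, against 281, 364 and 323 in silver eels and 416, 235 and 292 in yellow eels of FG1835. cmc2 g26363 had 24.3, 10.4 and 5.87 in silver eels and 20.4 and 7.42 in yellow eels of FG1907, against 96.0, 36.8 and 77.9 in silver eels and 81.3, 32.0 and 73.6 in yellow eels of FG1835. The sets were separate here too. Lowest of the 4, cmc2 g45143 had 11.6, 4.17 and 3.52 in silver eels and 3.39 and 0.927 in yellow eels of FG1907, against 35, 31.4 and 55 in silver eels and 65.1, 18.5 and 16.4 in yellow eels of FG1835. Of the cmc1 members, g16222 had 641, 613 and 941 in silver eels and 817 and 755 in yellow eels of FG1907, against 435, 389 and 514 in silver eels and 472, 420 and 411 in yellow eels of FG1835. The sets did not overlap, with FG1907 higher. The neighbouring identifier g16221, also cmc1, had 116, 186 and 190 in silver eels and 138 and 117 in yellow eels of FG1907, against 118, 145 and 118 in silver eels and 111, 129 and 105 in yellow eels of FG1835. cmc1 g14917 averaged 48.9 ± 10.8 in FG1907 and 66.9 ± 12.3 in FG1835 (SD, n = 5 and 6), and neither of these 2 was called between the sets.

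The oxoglutarate-malate (m2om), dicarboxylate (dic) and citrate (txtp) carriers pass intermediates of the citric acid cycle. txtp g18420 had 229, 192 and 449 in silver eels of FG1907 and 188, 217 and 183 in those of FG1835, against 148 and 243 in yellow eels of FG1907 and 114, 202 and 210 in those of FG1835. FG1907_03 was again the highest library, and the stage difference was 0.39 ± 0.29 on the log2 scale (SE), and 0.13 without FG1907_03. dic g20381 varied little, with 184, 161 and 167 in silver eels of FG1907 and 160, 154 and 199 in those of FG1835, against 157 and 189 in yellow eels of FG1907 and 152, 158 and 169 in those of FG1835. m2om g10267 had 110, 39.6 and 105 in silver eels of FG1907 and 104, 147 and 116 in those of FG1835, against 114 and 114 in yellow eels of FG1907 and 68.3, 172 and 138 in those of FG1835. FG1907_02 was its lowest library. The stage difference was -0.24 ± 0.32 (SE), and -0.08 without FG1907_02. The weak dic g20600 averaged 7.06 ± 3.91 in FG1907 and 19.2 ± 4.5 in FG1835 (SD, n = 5 and 6).

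Fatty acids enter mitochondria as acylcarnitines through mcat, and glutamate enters through ghc1. ghc1 g21544 had 273, 216 and 132 in silver eels and 287 and 121 in yellow eels of FG1907, against 1022, 1325 and 1861 in silver eels and 1384, 1107 and 992 in yellow eels of FG1835. The highest FG1907 library had 287 and the lowest FG1835 library 992. mcat g1560 had 431, 379 and 618 in silver eels and 617 and 473 in yellow eels of FG1907, against 486, 443 and 353 in silver eels and 374, 391 and 475 in yellow eels of FG1835, and overlapped in both comparisons. ghc1 g10097 had 92.7, 102 and 129 in silver eels of FG1907 and 295, 122 and 152 in those of FG1835, against 152 and 75.1 in yellow eels of FG1907 and 115, 102 and 66.4 in those of FG1835. Its stage difference of 0.54 ± 0.34 on the log2 scale (SE) rested on FG1835, with -0.05 within FG1907 and 0.23 when FG1835_04 was left out. ghc1 g17270 had 9.27, 18.8 and 14.1 in silver eels of FG1907 and 14, 15.2 and 18 in those of FG1835, against 19.2 and 23.2 in yellow eels of FG1907 and 18.7, 22.8 and 34.5 in those of FG1835. Only the silver eel FG1907_02, at 18.8, overlapped the yellow eels. The log2 difference was -0.67 ± 0.32 (SE; unadjusted p = 0.0595 and adjusted p = 1.00 in edgeR).

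Uncoupling proteins are carriers of the same family; ucp1 of mammals lets protons through to make heat, while the function of ucp2 is tied to metabolite exchange and reactive oxygen species. ucp2 g1260 had 2070, 882 and 5622 in the silver eels of FG1907 and 2331, 2353 and 1400 in those of FG1835, against 4007 and 2310 in the yellow eels of FG1907 and 2649, 2639 and 2640 in those of FG1835. Within FG1907 the silver eels spanned the lowest and the highest library of all 11. ucp4 g30230 had 30.1, 13.6 and 10.6 in silver eels of FG1907 and 14.0, 21.7 and 34.5 in those of FG1835, against 40.7 and 28.7 in yellow eels of FG1907 and 25.2, 28.7 and 19.1 in those of FG1835. Its stage difference of -0.45 ± 0.38 on the log2 scale (SE) had an unadjusted p of 0.253 in edgeR.

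Members named s25 carry several kinds of cargo. Pyrimidine nucleotides are carried by s2536 and s2533, glutathione by s2539 and s2540, coenzyme A by s2542 and branched-chain amino acids by s2544. s2536 g6236 had 1988, 1671 and 1668 in silver eels and 2039 and 1253 in yellow eels of FG1907, against 2777, 2143 and 1868 in silver eels and 2348, 1717 and 2191 in yellow eels of FG1835. Its neighbour by identifier, s2536 g6237, had 124, 235 and 68.1 in silver eels and 66.7 and 60.3 in yellow eels of FG1907, against 655, 529 and 359 in silver eels and 520, 417 and 612 in yellow eels of FG1835. g6236 overlapped between the sets and g6237 did not. s2539 g9430 had 1344, 1358 and 1112 in silver eels of FG1907 and 672, 897 and 1261 in those of FG1835, against 1199 and 1741 in yellow eels of FG1907 and 1114, 971 and 712 in those of FG1835. s2540 g4231 had 312, 243 and 460 in silver eels and 208 and 252 in yellow eels of FG1907, against 113, 121 and 130 in silver eels and 113, 115 and 105 in yellow eels of FG1835. It was separate between the sets, and its stage difference was 0.53 ± 0.41 on the log2 scale (SE), and 0.22 without FG1907_03. Weaker still, s2533 g12428 had 17.4, 26.1 and 30.5 in silver eels of FG1907 and 10, 26 and 2.46 in those of FG1835, against 11.3 and 12.1 in yellow eels of FG1907 and 7.32, 12.6 and 10.9 in those of FG1835. The stage difference was 0.77 ± 0.52 on the log2 scale (SE). The other s25 names with a mean above 50 had 179 ± 76.2 (s2545 g6728), 327 ± 24.4 (s2546 g2302), 295 ± 49.8 (s2544 g2564), 210 ± 69.4 (s2543 g6354) and 68.6 ± 24.1 (s2533 g16441) in FG1907. In FG1835 they had 68.1 ± 11.2 (s2545 g6728), 235 ± 27.3 (s2546 g2302), 199 ± 27.4 (s2544 g2564), 124 ± 27.2 (s2543 g6354) and 43 ± 17.3 (s2533 g16441; SD, n = 5 and 6). By stage these 5 transcripts overlapped.

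The remaining members were found by their description. kmcp1, first described in mammalian kidney, had 1419 ± 542 in silver eels and 1451 ± 123 in yellow eels for g12840 (SD, n = 6 and 5). kmcp1 g15372 had 141, 114 and 220 in silver eels of FG1907 and 100, 133 and 115 in those of FG1835, against 254 and 236 in yellow eels of FG1907 and 114, 217 and 98.2 in those of FG1835. Its stage difference was -0.43 ± 0.31 on the log2 scale (SE). The NAD carrier mcar1 (g11231) averaged 241 ± 29.0 in FG1907 and 154 ± 22.8 in FG1835. mtch2 g14898, known in mammals for inserting proteins into the outer membrane, had 607, 454 and 635 in silver eels and 532 and 655 in yellow eels of FG1907, against 267, 349 and 303 in silver eels and 320, 309 and 330 in yellow eels of FG1835, and the sets did not overlap. mtch1 g13092 averaged 242 ± 27.9 in FG1907 and 209 ± 49.2 in FG1835 (SD, n = 5 and 6).

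The comparison of silver with yellow eels asks whether carrier transcripts of the rete differ between the resident and the migrating stage. Protein, which the study measured separately, was not analysed here. At an adjusted p under 0.05 in edgeR, 0 of the 52 tested carriers were called, and of all transcripts 0.0% were. At an unadjusted p under 0.05, 1 carrier passed, scm2b g5212, against 2.15% of all transcripts. With the set as a term it was again 1 carrier, against 4.06% of all transcripts. DESeq2 called this carrier alone, against 0.0876% of all transcripts, and limma-voom called 0 carriers. Non-overlapping stages were found for 1 of the 52 carriers, against 0.238% of all transcripts. The log2 difference was above 0 for 29 carriers and below 0 for 23, and it was above 0 for 50.8% of all transcripts. Differences ran from -0.67 to 1.32 with a median of 0.04 (0.005 over all transcripts), and 47 of 52 lay within 0.5 of 0. The standard errors were 0.16 to 0.88 with a median of 0.34. Both sets gave the same direction for 26 of the 50 carriers tested in both.

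**Figure D3:**
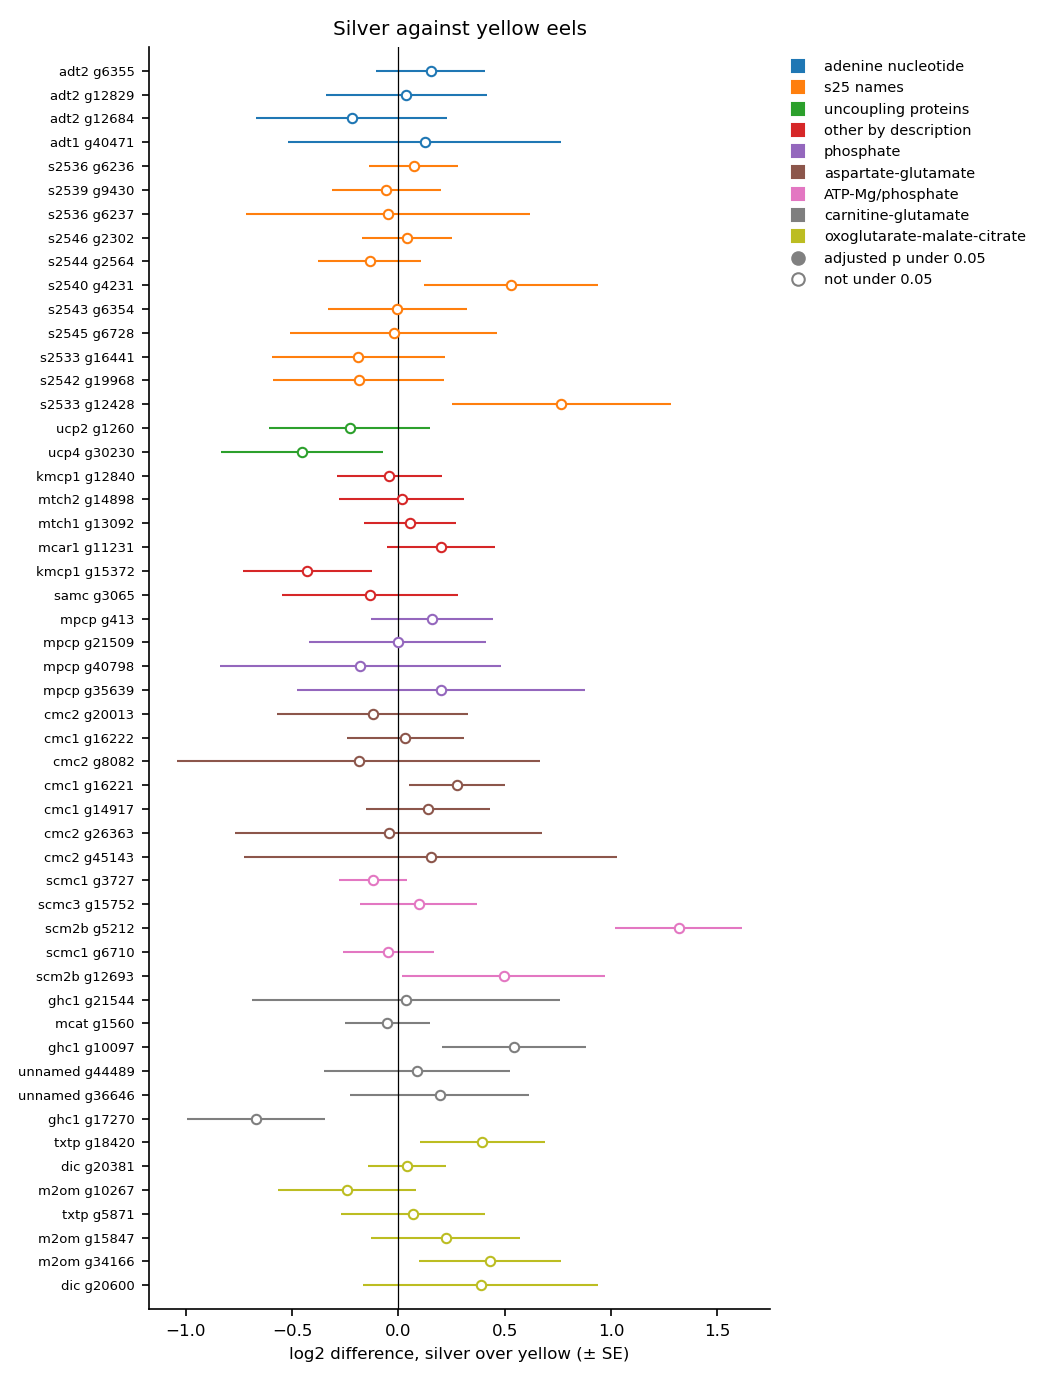
Log2 differences of silver over yellow eels with their SE (edgeR) for the 52 tested carriers, coloured by carrier group, with filled points for an adjusted p under 0.05. No point is filled, the points lie between -0.67 and 1.32, and scm2b g5212 is the one farthest from 0.

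The stage difference itself was compared between the sets by an interaction term. edgeR called 0 of the 52 carriers at an adjusted p under 0.05 (0.0% of all transcripts). limma-voom (0.0% of all) and DESeq2 (0.0917% of all) also called 0 carriers. At an unadjusted p under 0.05, 1 carrier passed against 4.94% of all transcripts. This was kmcp1 g12840, with 2271, 1373 and 1843 in silver eels and 1418 and 1268 in yellow eels of FG1907, and 826, 1156 and 1044 in silver eels and 1453, 1518 and 1597 in yellow eels of FG1835. Its log2 difference was 0.46 ± 0.34 within FG1907 and -0.61 ± 0.17 within FG1835 (SE). For the difference between the sets edgeR gave a p of 0.00701 and an adjusted p of 0.920.

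Set FG1907 was then compared with set FG1835, with the stage as a term. Of the 52 tested carriers, 23 (44.2%) were called at an adjusted p under 0.05 in edgeR, against 38.6% of all transcripts. In FG1907, 15 carriers were higher (19.5% of all transcripts) and 8 lower (19.0% of all). With upper quartile scaling the split was 12 higher and 11 lower, against 15.0% and 22.6% of all, and the median over all transcripts was then -0.11 in place of 0.03. The carriers' median was 0.26, and 0.12 with that scaling. In 15 carriers the sets did not overlap, against 21.1% of all transcripts. The share of carriers called in either direction was near that of all transcripts. By direction, 28.8% of the carriers were called higher and 15.4% lower, or 23.1% and 21.2% with upper quartile scaling. The carriers without overlap were 28.8% of those tested. Of the 23 calls, 17 held under each of the 18 alternatives that tested them, 11 of them higher and 6 lower.

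The lower calls were led by cmc2. All 4 cmc2 transcripts were lower in FG1907, with log2 differences of -3.27 ± 0.34 for g8082, -3.10 ± 0.56 for g45143, -2.30 ± 0.45 for g26363 and -1.16 ± 0.33 for g20013 (SE) and adjusted p-values of 0.000104, 0.00152, 0.00238 and 0.0149 in edgeR. The last lost its call without FG1907_06. ghc1 g21544 had -2.66 ± 0.28 (adjusted p = 0.000115), s2536 g6237 had -2.34 ± 0.35 (adjusted p = 0.000595) and dic g20600 had -1.57 ± 0.38 (adjusted p = 0.00676). An unnamed member, g36646, whose description is that of a glutamate carrier, had -0.91 ± 0.33 and lost its call when any 1 of 8 libraries was left out and with no filter on low counts. More than 4-fold lower in FG1907 were 5 carriers (9.62%), against 4.4% of all transcripts, and more than 4-fold higher 2 (3.85%), against 1.28%.

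The higher calls took in all 4 mpcp transcripts. In FG1907 g35639 was higher by 2.14 ± 0.34, g40798 by 2.03 ± 0.38 and g21509 by 1.26 ± 0.22 on the log2 scale (SE), with adjusted p-values of 0.000833, 0.00184 and 0.00143 in edgeR. mpcp g413, with most of the mpcp fragments, was higher by 0.64 ± 0.21 (adjusted p = 0.0325), but its call was lost with upper quartile scaling and when any 1 of 6 libraries was left out. adt2 g12684 was higher by 1.47 ± 0.19 (adjusted p = 0.000264) and adt2 g12829 by 0.94 ± 0.27 (adjusted p = 0.0155), or by 0.63 without FG1907_03. The most counted adt2, g6355, was not called, at 0.43 ± 0.21 (adjusted p = 0.119). adt1 g40471 was higher by 1.5 ± 0.52 (adjusted p = 0.0368), a call lost when any 1 of 7 libraries was left out, with limma-voom and with upper quartile scaling. Further calls were s2540 g4231 with 1.28 ± 0.19 (adjusted p = 0.000586), mtch2 g14898 with 0.88 ± 0.14 (adjusted p = 0.000882) and cmc1 g16222 with 0.77 ± 0.15 (adjusted p = 0.00275). The other 5, s2545 g6728, s2543 g6354, mcar1 g11231, s2544 g2564 and s2546 g2302, were higher by 1.38, 0.76, 0.63, 0.58 and 0.47. Of these, s2543 g6354 lost its call without FG1835_04 or FG1907_04, and s2546 g2302 without FG1835_05, FG1835_01 or FG1907_06, with no filter and with upper quartile scaling.

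**Figure D4:**
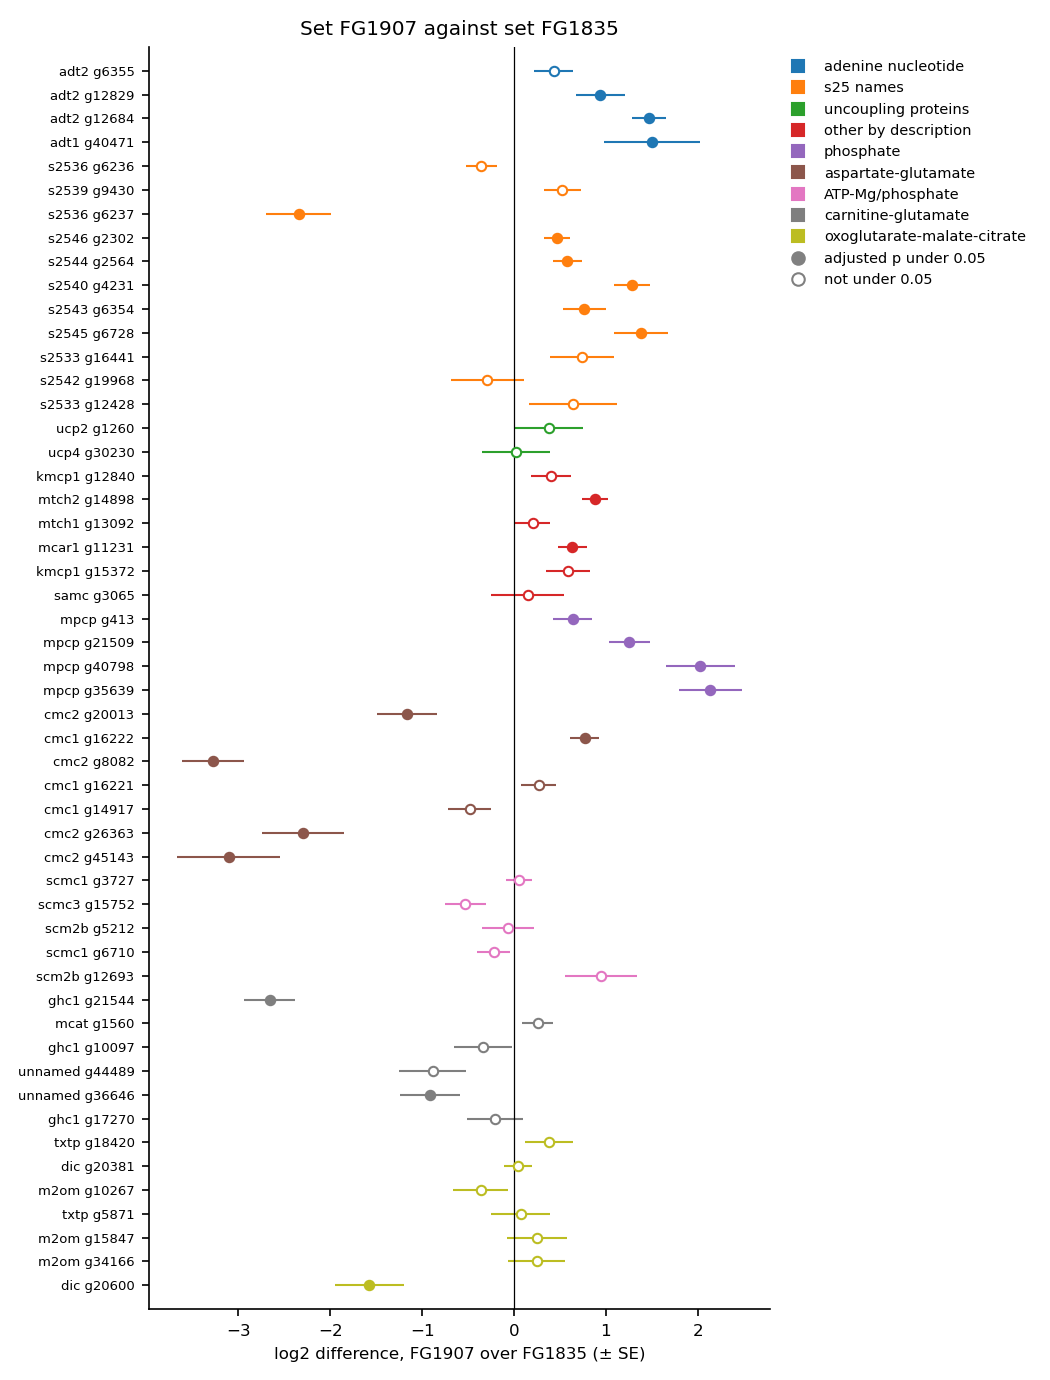
Log2 differences of set FG1907 over set FG1835 with their SE (edgeR, stage as a term) for the 52 tested carriers, coloured by carrier group, with filled points for an adjusted p under 0.05. The 4 cmc2 points lie between -3.27 and -1.16 and the 4 mpcp points between 0.64 and 2.14, and 23 points are filled.

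Members of 1 name did not always move together. The counts of s2536 g6237 were 3.27 to 14.0% of those of g6236 in FG1907, against 19.2 to 27.9% in FG1835. The counts of cmc2 g8082 were 3.85 to 17.1% of those of g20013 in FG1907, against 24.1 to 31.0% in FG1835. In both cases FG1907_02 had the highest share of its set. Among names with several tested members, the set differences of ghc1 spread over 2.45 on the log2 scale, of cmc2 over 2.11 and of s2536 over 1.99, but of s2533 over 0.10 and of kmcp1 over 0.19. How fragments of the sets were assigned to such members was not tested.

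**Figure D5:**
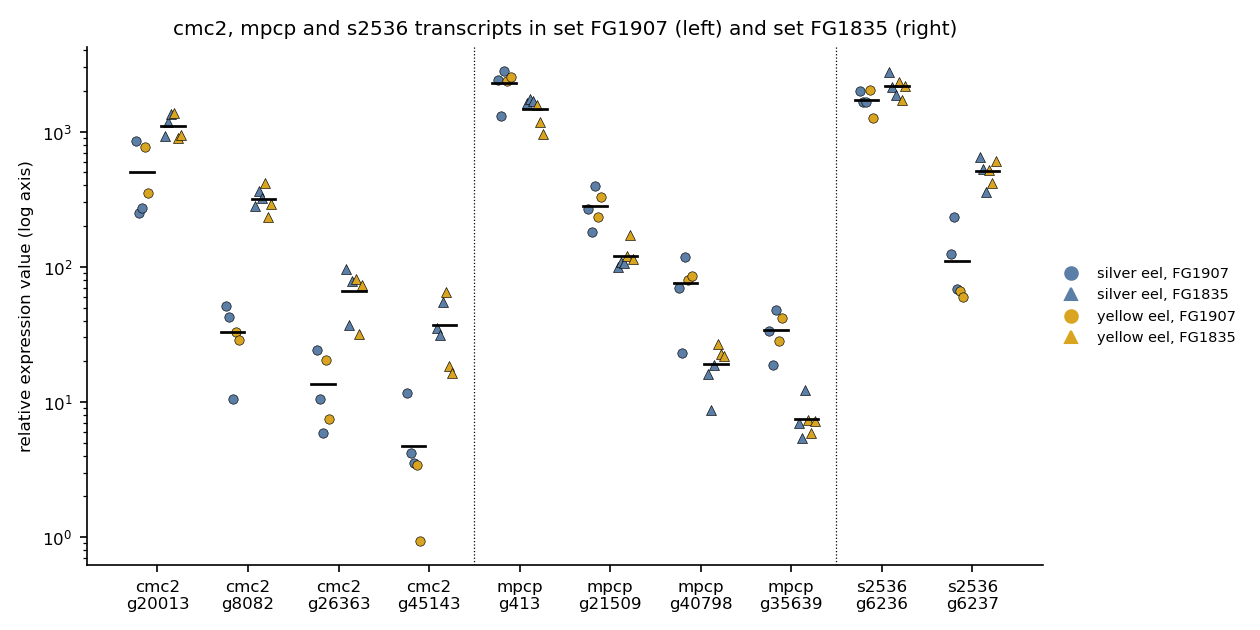
Relative expression values (log axis) of the 4 cmc2, 4 mpcp and 2 s2536 transcripts, 1 point per eel, with FG1907 (circles) left of FG1835 (triangles) at each transcript, silver eels in blue, yellow eels in gold, and bars at the set means. cmc2 is lower and mpcp higher in FG1907, and s2536 g6237 is separate between the sets while s2536 g6236 overlaps.

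Other mitochondrial genes were counted for comparison. In 14 lists of transcripts outside the 70 members, 0 were called between the stages in edgeR, against 0.0% of all transcripts. At an unadjusted p under 0.05, 1 passed, among the 6 tested sideroflexins, against 2.15% of all transcripts. The lists held from 2 (pyruvate carrier) to 78 (mitochondrial ribosome) tested transcripts each. These lists hold mitochondrial proteins, regulators of energy metabolism and 15 transcripts with other carrier names that the choice of members did not take in. Over all transcripts 19.5% were called higher and 19.0% lower in FG1907, or 15.0% and 22.6% with upper quartile scaling. Between the sets, 30 of 48 tested transcripts of complex I of the respiratory chain were higher in FG1907 and 2 lower, with a median log2 difference of 0.73. For ATP synthase 15 of 22 were higher and 0 lower (median 0.87), and for the mitochondrial ribosome 55 of 78 were higher and 0 lower (median 0.82). Enzymes of the citric acid cycle had 8 higher and 5 lower of 34 (median 0.20), and the carriers 15 and 8 of 52 (median 0.26). Of the 14 lists, 10 had their highest sum in FG1907_03, among them complex I with 29164 there and 12196 to 22275 in the other libraries, and ATP synthase with 33401 and 13529 to 29534. The sum over all transcripts was also highest in FG1907_03, at 1.23e+07 against a mean of 1.07e+07 over the 11 libraries. In the same library, markers of smooth muscle and pericytes summed to 53857, against 66364 to 117216 in the others, those of fibroblasts to 13840, against 15087 to 47934, and those of endothelial cells to 73438, against 35050 to 70831. Between the sets, 7 of 13 tested smooth muscle and pericyte transcripts were lower in FG1907 and 0 higher, and of the endothelial ones 5 of 14 were lower and 2 higher. The part of cell composition in the carrier differences was not tested.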

How the data were processed

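Counts per predicted gene were analysed for 11 libraries, 1 per eel. By the submitters' processing notes and the methods, the authors aligned reads with TopHat2 2.0.13 to the draft eel genome, removed secondary alignments with SAMtools 1.2 and obtained the deposited raw counts with HTSeq 0.6.1p1. The deposited base means are a signal that the authors made with DESeq size factors. Median-of-ratios factors computed here gave the same base means within 0.02%, with the column FG1935_03 read as the library FG1835_03, a title that heads no column. This reading rests on the titles, since base means depend on the stage of a column and not on its title. The authors' fold changes and p-values in the table were not used. Rete mirabile is the tissue given by the tissue label and the methods and was taken as such, although the extraction protocol mentions gas gland.

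The tests were made with edgeR 4.0.16 in R 4.3.3 (TMM scaling, filterByExpr by stage, quasi-likelihood test, Benjamini-Hochberg adjustment over all 23981 tested transcripts, threshold 0.05). Silver eels were compared with yellow eels without further terms, the sets with the stage as a term, and the interaction with both. Each SE follows from its log2 difference and F statistic. The stage and set fits were tried on simulated counts with large planted changes, a fixed dispersion and no set shift in the stage simulation. They were not tried on small differences. DESeq2 1.42.0, limma 3.58.1, other scalings and filters, the set as a term, each set alone and each library left out were the alternatives. Further calculations and plots used Python 3.11.15, pandas 2.3.3, numpy 2.4.6 and matplotlib 3.10.9.

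The members, lists and tests were chosen with earlier results of these data known. Named are the highest member of each name with a mean above 50, second members above 50, and the 5 members with the smallest p in each direction of the stage and set comparisons. Values in every library are given for these members of the stage and set comparisons, 19 in all, and for the 2 highest members of each carrier group. A few members outside the rule (adt1 g40471, dic g20600, scm2b g12693, unnamed g36646, mpcp g40798, and kmcp1 g12840 by library) were named after their values had been seen. The values of cmc1 g16221 by library were also given outside the rule. No source says that eels of a stage shared a tank, day or run. The stage test had no set term, so the spread behind its p-values holds the set difference besides the differences between eels. The set and interaction tests had both the stage and the set as terms.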

Additional observations from a re-analysis of the deposited data

Results flagged for a closer look

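Among 84 groups of silver or yellow libraries that were tested for a library far from the others, 11 were flagged. The nominal rate is about 1 in 20 for a single group. The groups share the same 11 libraries and are not independent, so the count of flags is not compared with that rate. Of the 11 flags, 6 were in the silver eel FG1907_03, each above the other silver eels. The summed carriers include the flagged members. There adt2 g6355 had 26974.3 (others 12924 to 16295), adt2 g12829 had 19022 (others 5750 to 7122), ucp2 g1260 had 5621.79 (others 882 to 2353), txtp g18420 had 448.71 (others 183 to 229), kmcp1 g15372 had 219.656 (others 100 to 141) and the summed carriers had 68364.8 (others 32147 to 40510). Other silver eels were flagged once each, ghc1 g10097 in FG1835_04 with 294.871 and s2543 g6354 in FG1907_01 with 322.096. In yellow eels ucp2 g1260 stood out in FG1907_04 with 4006.8, ghc1 g17270 in FG1835_03 with 34.5441 and cmc2 g45143 in FG1835_01 with 65.0659.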

How the results depend on the processing

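Between the stages the count of carriers at an adjusted p under 0.05 was 0 in edgeR under every scaling, filter and library left out, and 1 in DESeq2. At an unadjusted p under 0.01 the count was 1, against 0.413% of all transcripts, and 2 with no filter on low counts. At an unadjusted p under 0.05 it was 1, against 2.15% of all transcripts. It was 3 in FG1835 alone, 3 with no filter, and 2 without FG1907_02 and with the set as a term (added after the data had been seen). With 1 library left out it was 1 to 2 (2 without FG1835_06, FG1907_02 or FG1907_03). For the fits with no filter, in FG1835 alone or with libraries left out, shares over all transcripts were not counted. Over the tested carriers, the direction of the stage difference turned round for 20 of 51 in FG1907 alone and for 11 of 51 in FG1835 alone. Among the 10 named by the stage rule these were ghc1 g10097 (-0.0492 in FG1907 alone) and scmc1 g3727 (0.0768 in FG1835 alone), and the cause was not tested. Between the sets the count was 23, against 38.6% of all transcripts. It became 18 to 26 when 1 library was left out, 12 to 18 of them higher and 6 to 8 lower. Under the other alternatives it stayed within 1.5 times. No paired analysis was possible because the replicate numbers were given in accession order and pair no eels. Counts of few fragments limit the weaker members, since 18 of 70 carriers were not tested and 18 had a mean of 10 or less. The draft gene models, whose members of 1 name may share fragments, limit single values.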

Other observations

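The weakest carriers were near the limit of detection. Of the uncoupling proteins, ucp3 g35652 had 4 counts over all 11 libraries, ucp2 g1261 had 3 and ucp2 g21649 had 22, while ucp2 g1260 had 28955. Identifiers of s2543 g6354 and adt2 g6355 are consecutive in the table, and in the RefSeq annotation of the assembly fAngAng1.pri the gene slc25a43 is followed by slc25a5. Between the sets, FG1907 over FG1835, the log2 difference was 0.76 ± 0.23 for s2543 g6354 and 0.43 ± 0.21 for adt2 g6355 (SE).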
